A study of Mus musculus with 44 samples.

Results

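The genes examined were the 9 metallothionein and zinc transport genes Mt1, Mt2, Mt3, Mtf1, Slc30a1, Slc39a1, Slc39a8, Slc39a10 and Slc39a14, chosen by symbol. All 9 were present among the 22674 genes of the maturation table and the 18274 genes of the ovulation table, and all 9 passed the filter on low values in both. RNA sequencing was carried out on 44 libraries of ovarian follicles from wild-type CD-1 mice, an outbred strain. In the maturation window, when follicles depend on gonadotropin, 11 control libraries received the solvent DMSO and 10 received PFNA (perfluorononanoic acid), one of the persistent per- and polyfluoroalkyl substances. In the ovulation window, 12 control libraries received hCG (human chorionic gonadotropin, the hormone that triggers ovulation) and 11 received hCG with PFNA. The labels give no dose, exposure time, age or batch. They also do not say whether libraries of a group came from separate cultures or animals, so the p-values measure the spread between these libraries, which may be technical.

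Zinc in a cell is buffered by metallothioneins, small cysteine-rich proteins that bind zinc and copper. MTF1 is a zinc-sensing transcription factor that binds metal response elements in the promoters of metallothionein genes and of Slc30a1. SLC30 (ZnT) proteins move zinc out of the cytosol and SLC39 (ZIP) proteins move it in. In the ovary, oocytes accumulate zinc as they mature and release part of it as zinc sparks at fertilization.

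With PFNA, 1 of the 9 genes was called higher in the maturation window, the zinc exporter gene Slc30a1, and none was called lower. Ovulation calls numbered 6, all lower: Mt2, Mtf1, Slc30a1, Slc39a1, Slc39a10 and Slc39a14. A call was an adjusted p under 0.05 over all genes tested. The share of all tested genes called was 29.4% in the maturation window (13.3% higher, 16.1% lower) and 73.2% in the ovulation window (38% higher, 35.2% lower). The 2 groups did not overlap for 4 of the 9 genes in the ovulation window, all lower (all genes: 26% in either direction, 14.1% lower, 11.9% higher), and for none in the maturation window (1.28%, 0.788% and 0.489%). The median log2 fold change of the 9 genes was 0.00 in the maturation window and -0.60 in the ovulation window, beside 0.02 and 0.04 over all genes tested. Library totals in the ovulation window ran from 10600931 to 19511531 counts, whereas the depth behind the TPM of the maturation window is unknown.

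**Figure D1:**
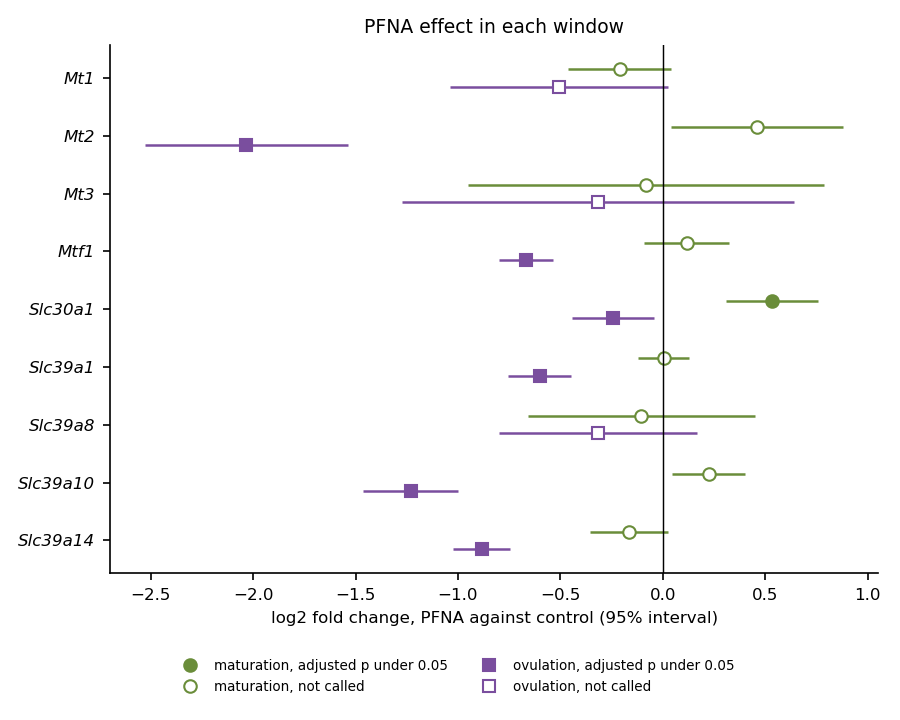
Log2 fold change of PFNA against control for the 9 genes in each window, on the horizontal axis, with 95% intervals as bars (circles, maturation window; squares, ovulation window; filled where the adjusted p was under 0.05). The ovulation values of Mt2, Slc39a10 and Slc39a14 (-2.03, -1.23 and -0.88) lie farthest to the left, and Slc30a1 is the gene whose 2 filled symbols lie on opposite sides of 0.

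Cell type markers differed with PFNA, and single libraries stood apart by them. The summed level of 8 oocyte markers, among them the zona pellucida genes Zp1, Zp2 and Zp3, was 80.1 to 128 TPM in the maturation controls and 0.268 to 264 TPM with PFNA. PFNA replicates 1 and 2 had sums of 88.0 and 70.0 TPM and replicate 10 had 264 TPM, while the other PFNA libraries were at 2.16 TPM or below. All 7 oocyte markers tested there were lower with PFNA. Ovulation sums were 55.5 to 246 CPM (read counts scaled to a common library size after TMM normalisation) in controls, with replicates 2 and 7 at 243 and 246, and 8.14 to 381 CPM with PFNA, where 4 of 7 markers were higher. Of 7 granulosa cell markers, 6 were lower in the maturation window, and 5 were higher and 1 lower in the ovulation window. Their sums were 31120 to 50840 TPM in controls and 13050 to 38220 TPM with PFNA in the former, and 6324 to 8895 CPM and 5482 to 8127 CPM in the latter. Inha made up most of these sums (means of 34970 of 40880 TPM in maturation controls and 7352 of 7702 CPM in ovulation controls). It was the granulosa marker called lower in the ovulation window. All 5 endothelial markers were higher with PFNA in the ovulation window (sums of 30.1 to 110.2 CPM in controls and 39.1 to 319 CPM with PFNA), as were 4 of 6 theca and stroma markers (90.1 to 595 and 411 to 844 CPM), with 1 lower. Over all genes tested, 13.3% were called higher and 16.1% lower in the maturation window, and 38% and 35.2% in the ovulation window. No marker of these lists was at 0 in every library of a group. In such bulk libraries fewer cells of a type and less RNA per cell cannot be told apart, and the part of cell makeup in the results below was not tested beyond the fits named beside them.

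Mt1, Mt2 and Mt3 lie in a cluster on mouse chromosome 8 (GRCm38, plus strand), Mt3 at 94152607 to 94154146, Mt2 at 94172664 to 94173568 and Mt1 at 94179082 to 94180327. The gap between Mt3 and Mt2 is 18517 bases and that between Mt2 and Mt1 is 5513 bases. Each has 3 exons in its longest model. Within the 250 bases searched, the promoters of the cluster differed in matches to the metal response element core, the sequence bound by MTF1. The promoter of Slc30a1 is shown with them because it too is a known target that MTF1 activates. The 250 bases before the RefSeq start (RefSeq, GRCm38.p6) are printed 5′ to 3′ on the gene's strand. Capitals mark each match to the element core, searched as TGCACNC or TGCGCNC on both strands with overlapping matches counted once, so that a match on the other strand reads as its reverse complement. The windows are chr8:94178839-94179088 for Mt1, chr8:94172368-94172617 for Mt2, chr8:94152357-94152606 for Mt3 and chr1:191906531-191906780 for Slc30a1, all on the plus strand.
Mt1: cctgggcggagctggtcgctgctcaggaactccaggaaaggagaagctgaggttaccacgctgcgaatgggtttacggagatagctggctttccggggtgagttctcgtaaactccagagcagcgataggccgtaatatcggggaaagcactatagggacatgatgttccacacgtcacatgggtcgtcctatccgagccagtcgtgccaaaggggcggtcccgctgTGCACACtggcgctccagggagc
Mt2: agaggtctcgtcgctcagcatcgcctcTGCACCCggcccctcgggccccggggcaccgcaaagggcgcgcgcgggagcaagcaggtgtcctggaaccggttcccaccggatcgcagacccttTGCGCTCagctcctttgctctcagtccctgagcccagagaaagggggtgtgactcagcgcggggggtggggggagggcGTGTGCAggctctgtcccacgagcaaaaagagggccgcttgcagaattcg
Mt3: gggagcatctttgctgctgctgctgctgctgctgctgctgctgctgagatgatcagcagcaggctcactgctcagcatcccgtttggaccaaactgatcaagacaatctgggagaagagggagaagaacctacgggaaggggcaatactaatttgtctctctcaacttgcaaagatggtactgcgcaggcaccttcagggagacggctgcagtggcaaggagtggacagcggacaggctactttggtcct
Slc30a1: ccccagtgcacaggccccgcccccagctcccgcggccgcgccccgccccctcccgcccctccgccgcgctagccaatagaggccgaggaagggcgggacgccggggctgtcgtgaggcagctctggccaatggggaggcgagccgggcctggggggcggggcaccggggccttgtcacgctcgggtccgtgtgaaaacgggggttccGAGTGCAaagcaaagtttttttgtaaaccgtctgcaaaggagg

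The Mt2 window held 3 matches, at positions -223 to -217, -128 to -122 and, on the minus strand, -50 to -44, counted from the start. The Mt1 window held 1 match, at -23 to -17, and the Slc30a1 window held 1, at -43 to -37 on the minus strand, whereas the Mt3 window held none. Of 32851 RefSeq promoter windows of this length, 21.41% held at least 1 match and 0.7701% held at least 3. With the bases after the start that the RefSeq windows include, the matches numbered 4 for Mt2, 3 for Mt1, 2 for Slc30a1 and 1 for Mt3. The numbers thus depend on where the window ends. For Mt2 the RefSeq start is at 94172618 and the gene start given above is at 94172664. The windows of Mtf1, Slc39a1 and Slc39a10 held none, and 1 of the 2 windows of Slc39a8 held 1. Windows were found for 8 of the 9 genes. A match describes these letters only, and its absence from a window says nothing of MTF1 binding.

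Levels can be ordered between genes in the maturation table, since TPM is corrected for transcript length. In the controls Mt1 was highest, with a mean of 764 ± 151 TPM (SD, n = 11). Slc39a1 (219 ± 19.2 TPM) and Mt2 (180.0 ± 54.4 TPM) came next and their ranges overlapped. Slc30a1 (45.1 ± 6.48 TPM) and Mt3 (40.3 ± 21.8 TPM) followed with overlapping ranges, then Slc39a10 (11.5 ± 1.47 TPM) and Slc39a14 (7.45 ± 1.04 TPM), also overlapping. Mtf1 (4.10 ± 0.712 TPM) and Slc39a8 (1.19 ± 1.04 TPM) were lowest and overlapped each other. The mRNA of the zinc-sensing factor was thus present at a lower level than that of the genes it is known to act on.

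**Figure D2:**
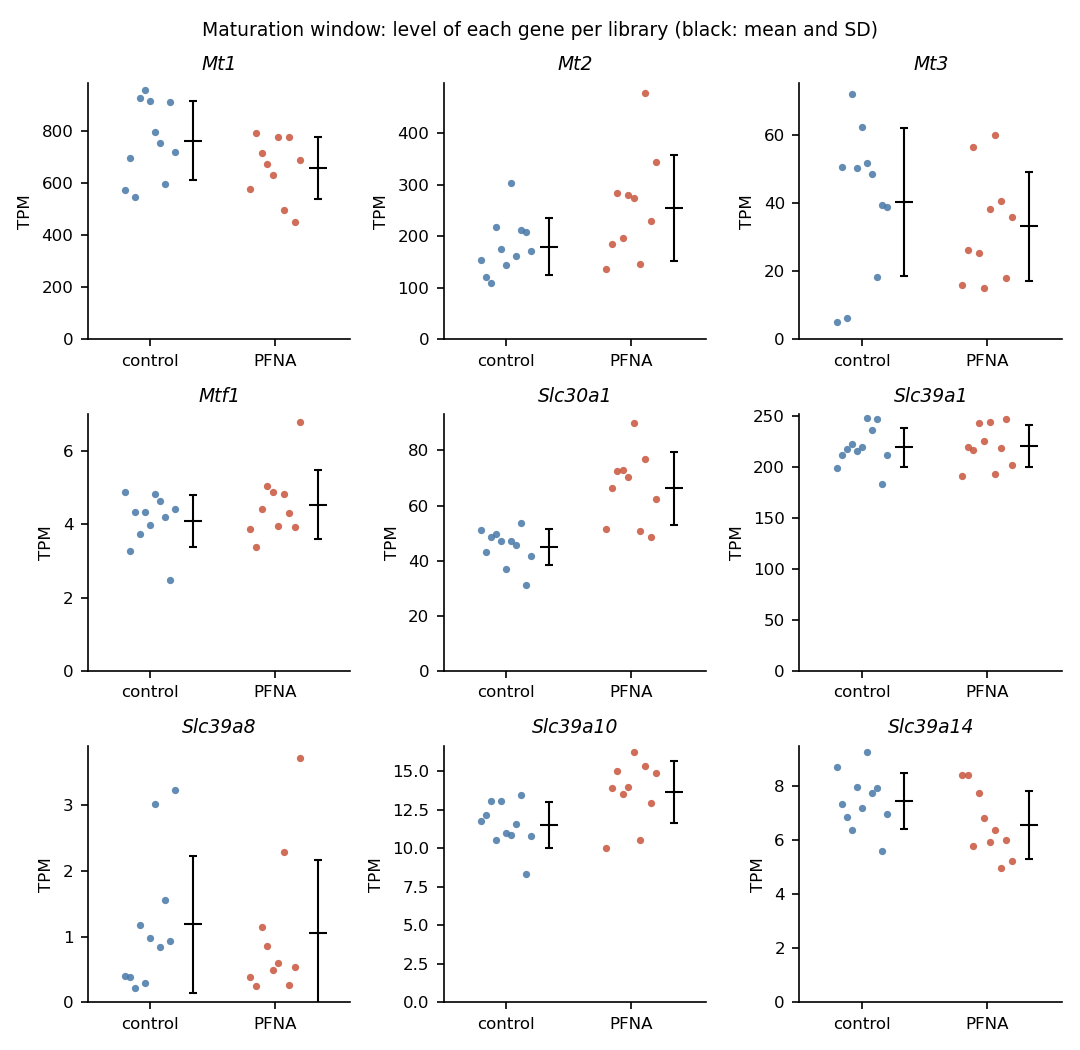
Level of each gene in TPM (vertical axes, each from 0) in the 11 control and 10 PFNA libraries of the maturation window, 1 point per library, with the mean and SD in black. For Slc30a1 and Slc39a10, 7 of 10 PFNA libraries lie above every control, and the 2 groups overlap for all 9 genes.

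Mt2, a ubiquitous metallothionein of the isoform pair that is induced by metals and glucocorticoids, had the largest fold change of the 9 genes in the ovulation window. In the ovulation controls Mt2 was at 87.6 CPM at the lowest, 216 at the median and 439 at the highest, and with PFNA at 19.7, 59.8 and 88.1. Of the 11 PFNA libraries 10 were below every control, and the groups met only where PFNA replicate 2 (88.1 CPM) passed control replicate 9 (87.6 CPM). Mt2 was 4.09-fold lower with PFNA, a log2 fold change of -2.03 ± 0.24 (SE; edgeR quasi-likelihood test, adjusted p = 5.3e-08). Its maturation levels were 109, 172 and 304 TPM in controls and 137, 252 and 478 TPM with PFNA, and the groups overlapped. Its log2 fold change there, 0.46 ± 0.20 (95% interval 0.04 to 0.88), missed the threshold (limma, adjusted p = 0.092). It passed when PFNA replicates 1 and 2, which held oocyte markers near the control level, were left out (0.61, adjusted p = 0.023), or when PFNA replicate 1 or control replicate 8 alone was left out (0.55 and 0.54). The fit without PFNA replicates 1 and 2 kept replicate 10, which had the highest oocyte marker sum (264 TPM), so it is not a fit without oocyte-bearing PFNA libraries. With the oocyte marker share as a covariate the Mt2 value was 0.33 (adjusted p = 0.51).

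Mt1 encodes the other ubiquitous isoform and passed the test in neither window. Its ovulation levels were 86.1, 138 and 321 CPM in controls and 52.6, 121 and 204 CPM with PFNA, as lowest, median and highest. The groups overlapped, with 3 PFNA libraries below every control. Its log2 fold change of -0.51 ± 0.26 (95% interval -1.04 to 0.02) did not pass (edgeR quasi-likelihood test, adjusted p = 0.079), and the interval includes both no change and a halving. Leaving out control replicate 1, control replicate 8 or PFNA replicate 6 made it pass (-0.57, -0.57 and -0.62). During maturation Mt1 was at 546, 755 and 959 TPM in controls and at 449, 680.0 and 794 TPM with PFNA, and the groups overlapped. The log2 fold change there was -0.21 ± 0.12 (95% interval -0.46 to 0.04; limma, adjusted p = 0.20).

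The 2 isoforms lie 5513 bases apart, and their transcripts share 72.05% of 483 aligned bases with a longest identical run of 20 bases. A read longer than that run cannot match both of these transcripts exactly. Whether any reads were split between them was not tested. The ratio of Mt2 to Mt1 was looked at after their values had been seen and is given without a test. Maturation controls had a ratio of 0.240 ± 0.0717 (SD, n = 11) and PFNA libraries one of 0.387 ± 0.129 (SD, n = 10), with overlapping ranges of 0.157 to 0.382 and 0.232 to 0.614. Ovulation controls had a ratio of 1.496 ± 0.593 (SD, n = 12) and PFNA libraries one of 0.490 ± 0.0988 (SD, n = 11), and the ranges of 0.820 to 2.49 and 0.302 to 0.622 did not overlap. The ovulation ratio is of CPM, which is not corrected for length, so its level is not set against that of the maturation window.

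**Figure D3:**
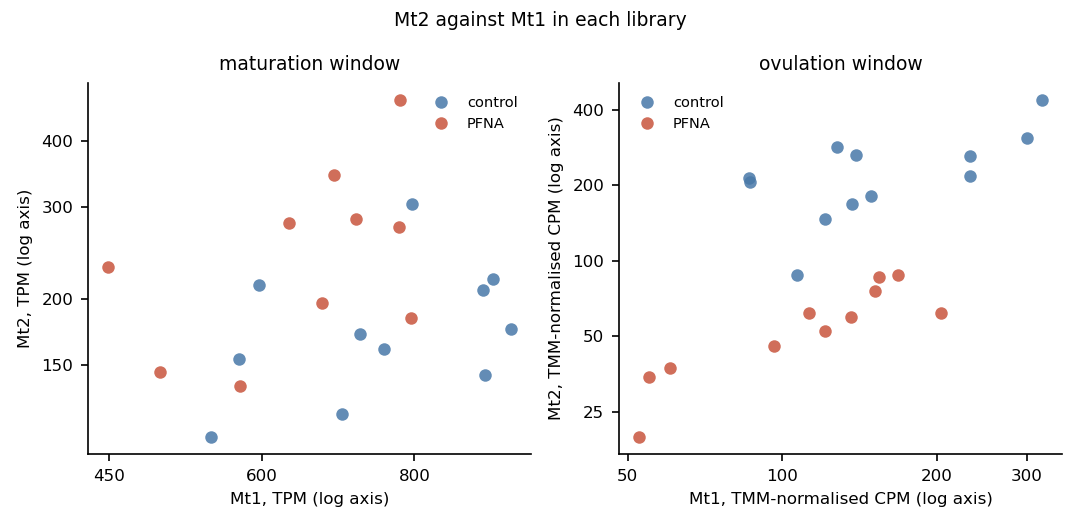
Mt2 against Mt1 in each library, both on log axes, in TPM for the maturation window (left) and in TMM-normalised CPM for the ovulation window (right), with control and PFNA libraries in separate colours. In the right panel the 11 PFNA libraries form a band of lower Mt2 relative to Mt1, with ratios of 0.302 to 0.622 against 0.820 to 2.49 in the 12 controls. Mt1 ran from 52.6 to 204 CPM with PFNA and from 86.1 to 321 CPM in controls. The groups thus share only part of the Mt1 range.

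Mt3, known as growth inhibitory factor from brain, where it is mainly expressed, varied more between libraries than the other genes of the cluster. Its maturation level was 5.11, 48.5 and 71.8 TPM in controls and 14.9, 31.1 and 59.8 TPM with PFNA, as lowest, median and highest. The ovulation level was low, at 0.346, 1.77 and 5.32 CPM in controls and 0.286, 1.99 and 3.74 CPM with PFNA, from 4 to 67 counts per library. The groups overlapped in both windows. The log2 fold changes were -0.08 ± 0.42 (limma, adjusted p = 0.91) and -0.32 ± 0.46 (edgeR quasi-likelihood test, adjusted p = 0.55). Their 95% intervals, -0.95 to 0.79 and -1.27 to 0.64, are wide enough to hold changes of considerable size in either direction. The ovulation value was -0.13 to -0.48 without single libraries (control replicate 3 and PFNA replicate 2 at the ends; -0.16 to -0.20 without control replicate 4 or PFNA replicate 5 or 11) and -0.74 with the oocyte covariate.

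Summed over Mt1, Mt2 and Mt3, metallothionein mRNA made up 0.0984% ± 0.0195 (SD, n = 11) of the TPM in maturation controls. The share in the PFNA libraries was 0.0947% ± 0.0197 (SD, n = 10). Ovulation sums averaged 404 ± 161 CPM (SD, n = 12) and ran from 196 to 764 in controls. With PFNA they averaged 178 ± 69.6 CPM (SD, n = 11) and ran from 72.6 to 266. The ranges overlapped in both windows, and the lower ovulation sum came mostly from Mt2, whose mean was 232 CPM in controls and 56.6 CPM with PFNA.

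Within groups, Mt1 and Mt2 varied together in the ovulation PFNA libraries (Pearson r = 0.89, permutation p = 0.0002, adjusted p = 0.0024 over 12 relations; Spearman rho = 0.86, permutation p = 0.00094, adjusted p = 0.011; n = 11). Without the 2 libraries farthest from the median of Mt1, r was 0.81 and no longer passed (exact permutation test, p = 0.00675, adjusted p = 0.081; n = 9). That run also has fewer libraries, so the lost call does not tell whether the relation rests on those 2. Mt1 and Slc30a1 had r = 0.86 in the maturation PFNA libraries (permutation p = 0.00142, adjusted p = 0.0085; rho = 0.72, permutation p = 0.0236, adjusted p = 0.13; n = 10), which was 0.70 without 2 libraries (exact permutation test, adjusted p = 0.20). None of the other 10 relations between Mt1, Mt2 and Slc30a1 within groups passed. Of 8 relations with Mt3 added after the values were seen, that of Mt1 with Mt3 in ovulation controls was the tightest (r = 0.95, permutation p = 1e-05, the smallest the permutations can give, adjusted p = 8e-05; rho = 0.92, permutation p = 6e-05, adjusted p = 0.00048; n = 12), and r was 0.91 without 2 libraries (permutation adjusted p = 0.0036). In maturation controls r was 0.85 (permutation p = 0.00052, adjusted p = 0.0021; rho = 0.77, permutation p = 0.0073, adjusted p = 0.029; n = 11) and 0.74 without 2 libraries (exact permutation test, adjusted p = 0.070). In the PFNA libraries the relation of Mt1 and Mt3 did not pass, with r = 0.26 (permutation, adjusted p = 0.52; n = 10) in the maturation window and r = 0.66 (permutation, adjusted p = 0.065; n = 11) in the ovulation window. The relation of Mt2 with Mt3 passed in the ovulation PFNA libraries (r = 0.72, permutation p = 0.0097, adjusted p = 0.026; rho = 0.65, permutation p = 0.0378, adjusted p = 0.088; n = 11). Without 2 libraries it did not (r = 0.50, exact permutation test, adjusted p = 0.35). In the other groups it did not pass, with r from 0.23 to 0.41. Mt2 lies between Mt1 and Mt3 in the cluster.

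The genes whose levels were most like that of Mt1, by the mean of the Pearson r within controls and within PFNA libraries, were Prdx1 (0.56), Rps26 (0.56), Sfrp4 (0.56), Osgin2 (0.56) and Sirt6 (0.55) among 7409 genes of the maturation window, with the 9 genes and predicted genes left out of the names. Prdx1 encodes a peroxide-reducing enzyme and Rps26 a ribosomal protein. The mean hides differences between groups. In controls and with PFNA, r was 0.26 and 0.87 for Prdx1, 0.30 and 0.82 for Sfrp4 and 0.39 and 0.73 for Osgin2. It was 0.64 and 0.48 for Rps26 and 0.64 and 0.47 for Sirt6. Over 9575 genes of the ovulation window the genes most like Mt1 were Wwp1 (0.80), Rab3gap2 (0.78), Entpd7 (0.78), Zc3hav1 (0.77) and Reps1 (0.77), and no gene was in both lists. Ranked among all of these genes, predicted ones included, Mt3 was at place 7 and Mt2 at place 41 in the maturation window, and Mt2 was at place 7 in the ovulation window. These are descriptions over 21 and 23 libraries, with no test. The part of depth or preparation in them was not tested either.

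Mtf1, the zinc sensor itself, was lower with PFNA in the ovulation window and did not pass the test in the maturation window. It lies on chromosome 4 at 124802104 to 124849800 (GRCm38, plus strand). Its ovulation levels were 33.3, 39.8 and 48.2 CPM in controls and 21.1, 24.97 and 27.7 CPM with PFNA, as lowest, median and highest. All 11 PFNA libraries were below every control. The log2 fold change was -0.67 ± 0.064 (SE; edgeR quasi-likelihood test, adjusted p = 8.9e-10). Maturation levels were 2.50, 4.33 and 4.89 TPM in controls and 3.38, 4.36 and 6.79 TPM with PFNA, and they overlapped (log2 fold change 0.12 ± 0.10, limma, adjusted p = 0.41). Leaving out PFNA replicate 10 or control replicate 11 brought that value to 0.06. The exons of Mtf1 overlap those of 1110065P20Rik on the other strand, and the use of strand in counting is not given in the sources used here. 1110065P20Rik was at 127 ± 13.8 TPM (SD, n = 11) in maturation controls and at 10.5 ± 2.06 CPM (SD, n = 12) in ovulation controls, and its log2 fold change in the ovulation window was 0.14 ± 0.14.

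**Figure D4:**
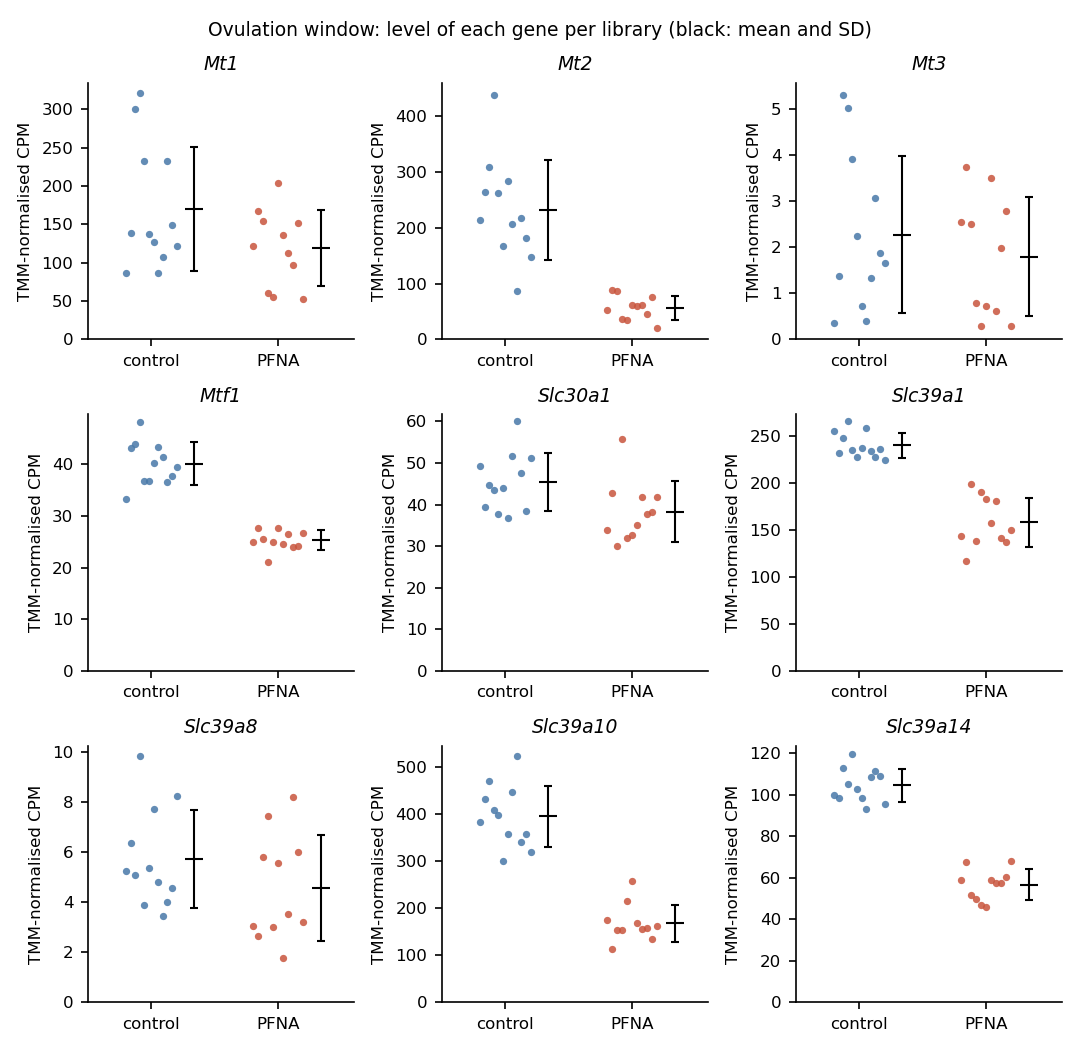
Level of each gene in TMM-normalised CPM (vertical axes, each from 0) in the 12 control and 11 PFNA libraries of the ovulation window, 1 point per library, with the mean and SD in black. The PFNA points of Mtf1, Slc39a1, Slc39a10 and Slc39a14 all lie below the controls, those of Mt2 do so in 10 of 11 libraries, and those of Mt1, Mt3 and Slc39a8 are mixed with the controls.

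Slc30a1 encodes ZnT1, which exports zinc across the plasma membrane and, like the metallothioneins, is a known target of MTF1. It lies on chromosome 1 at 191906767 to 191913247 (GRCm38, plus strand). Its maturation levels were 31.1, 47.1 and 53.5 TPM in controls and 48.4, 68.3 and 90.1 TPM with PFNA, as lowest, median and highest. Of the 10 PFNA libraries 7 were above every control and the other 3 were within the control range. Slc30a1 was 1.45-fold higher with PFNA, a log2 fold change of 0.53 ± 0.11 (95% interval 0.31 to 0.76; limma, adjusted p = 0.00087). The value was 0.57 without PFNA replicates 1 and 2 (adjusted p = 0.00061), and with the oocyte marker share as a covariate it was 0.46 and no longer passed (adjusted p = 0.081). That covariate took the number of genes called over the whole table from 4030 to 874. Leaving out PFNA replicates 1 and 2 took that number to 5201.

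During ovulation Slc30a1 was at 36.9, 44.4 and 60.2 CPM in controls and at 30.1, 37.8 and 55.9 CPM with PFNA. The groups overlapped, with 5 of 11 PFNA libraries below every control. The log2 fold change was -0.24 ± 0.097 (95% interval -0.44 to -0.04; edgeR quasi-likelihood test, adjusted p = 0.027). It did not pass without control replicate 9 (-0.20, adjusted p = 0.055) or without PFNA replicate 3 (-0.21, adjusted p = 0.051). Slc30a1 was the only one of the 9 genes called in both windows, and its calls were in opposite directions. Over all genes tested, 29.4% were called in the maturation window and 73.2% in the ovulation window. The share called in both, or in opposite directions, was not counted.

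Of the genes chosen, 4 encode ZIP transporters, which are importers. Slc39a1, Slc39a10 and Slc39a14, 3 of these 4, were lower with PFNA in the ovulation window with no overlap between groups. Over all genes tested there, 14.1% were lower without overlap and 11.9% higher. The ZIP genes tested outside this set were mixed. Slc39a9 was lower and Slc39a11 higher, both without overlap. Slc39a6 and Slc39a7 were called lower and Slc39a13 higher, with overlap, and Slc39a3 was not called. Slc39a10 encodes ZIP10, a plasma membrane zinc importer known from oocytes among other cells, and lies on chromosome 1 at 46807544 to 46892852 (GRCm38, minus strand). Its ovulation levels were 301, 389 and 523 CPM in controls and 114, 157 and 258 CPM with PFNA, as lowest, median and highest. It was 2.35-fold lower with PFNA (log2 fold change -1.23 ± 0.11, edgeR quasi-likelihood test, adjusted p = 3.7e-10). With the oocyte marker share as a covariate the value was -1.15. The maturation levels were 8.30, 11.6 and 13.5 TPM in controls and 10.04, 13.96 and 16.2 TPM with PFNA. Of the 10 PFNA libraries there, 7 were above every control, and the log2 fold change of 0.22 ± 0.085 was just outside the threshold (limma, adjusted p = 0.053). It passed without PFNA replicates 1 and 2 (0.27, adjusted p = 0.017) and without any single one of control replicates 3, 6 and 10 or PFNA replicates 1 and 7 (0.24 to 0.27). With the oocyte marker share as a covariate it was 0.18 (adjusted p = 0.38).

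Slc39a14 encodes ZIP14, which carries iron and manganese besides zinc and is induced by IL-6 in liver, and it lies on chromosome 14 at 70303469 to 70351425 (GRCm38, minus strand). In the ovulation window it was at 93.1, 104 and 119.9 CPM in controls and at 46.2, 57.4 and 68.1 CPM with PFNA. The groups stood well apart, with the highest PFNA library below the lowest control, and Slc39a14 was 1.85-fold lower (log2 fold change -0.88 ± 0.067, edgeR quasi-likelihood test, adjusted p = 1.1e-11). Its maturation levels overlapped, at 5.60, 7.35 and 9.27 TPM in controls and 4.97, 6.18 and 8.42 TPM with PFNA (log2 fold change -0.17 ± 0.092, limma, adjusted p = 0.18). Without PFNA replicates 1 and 2 that value was -0.25 and passed (adjusted p = 0.026), and with the oocyte marker share as a covariate it was -0.07 (adjusted p = 0.76).

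Slc39a1 encodes ZIP1, a broadly expressed plasma membrane importer, and lies on chromosome 3 at 90248172 to 90253612 (GRCm38, plus strand). Its ovulation levels were 225, 236 and 266 CPM in controls and 117, 150.3 and 199.7 CPM with PFNA, with no overlap. The log2 fold change was -0.60 ± 0.074 (edgeR quasi-likelihood test, adjusted p = 6.6e-08). During maturation the 2 groups covered nearly the same range, 184 to 248 TPM in controls and 191 to 247 TPM with PFNA, and the log2 fold change was 0.00 ± 0.059 (95% interval -0.12 to 0.13; limma, adjusted p = 0.97). Of the 9 genes it had the narrowest interval in that window.

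Slc39a8 encodes ZIP8, which also carries manganese, iron and cadmium, and lies on chromosome 3 at 135825279 to 135888572 (GRCm38, plus strand). It was low in both windows, at 0.218 to 3.23 TPM in maturation controls and 0.255 to 3.71 TPM with PFNA, and at 3.44 to 9.84 CPM in ovulation controls and 1.76 to 8.21 CPM with PFNA. The groups overlapped in both. The log2 fold changes of -0.10 ± 0.27 (limma, adjusted p = 0.80) and -0.32 ± 0.24 (edgeR quasi-likelihood test, adjusted p = 0.23) did not pass.

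The PFNA effect was then compared between windows by testing the ovulation effect minus the maturation effect, with limma fits made separately in each table. It was called lower in the ovulation window for 6 of the 9 genes, beside 67.7% of 11214 genes called in all, with 35.6% called lower and 32% higher. The difference was -2.48 ± 0.31 (SE) for Mt2 (adjusted p = 3.3e-09), the largest in size among the 9 genes, and -1.46 ± 0.14 for Slc39a10 (adjusted p = 1.3e-12). For Slc30a1 it was -0.78 ± 0.14, for Mtf1 -0.76 ± 0.12, for Slc39a14 -0.71 ± 0.11 and for Slc39a1 -0.62 ± 0.094. Of these 6 genes, Mt2 and Slc39a10 had estimates above 0 in the maturation window that did not pass there, and Slc30a1 was called in both directions. The difference did not pass for Mt1 (-0.29 ± 0.29, adjusted p = 0.38), Mt3 (-0.12, adjusted p = 0.84) or Slc39a8 (-0.21, adjusted p = 0.58). The windows differ in units, gene models and hormone as well as in time, and these cannot be told apart.

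The remaining zinc transport genes did not move in 1 direction. A list of 21 further genes (Mt4, the other Slc30 and Slc39 genes and Tmem163) had 18 members in each table, and the others were not analysed here. In the maturation window 11 were tested, of which none was higher and 2 were lower, with a median log2 fold change of 0.02. These were Slc39a7, which encodes the ZIP7 transporter of the endoplasmic reticulum (937 ± 72.2 TPM, n = 11, to 705 ± 138 TPM, n = 10; -0.43, limma, adjusted p = 0.00079), and Slc30a9 (48.7 ± 5.72 to 36.5 ± 10.04 TPM; -0.44, adjusted p = 0.0084). Slc39a13, Slc39a3 and Slc39a6, the genes not called with the highest levels, had log2 fold changes of -0.06, 0.09 and 0.04. For the ovulation window 12 were tested, of which 5 were higher and 3 lower, with a median of 0.11. Over all genes tested, 13.3% were higher and 16.1% lower in the maturation window, and 38% and 35.2% in the ovulation window.

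The largest of these ovulation changes was in Slc39a11, which encodes ZIP11. It was at 2.46 to 5.73 CPM in controls and at 7.33 to 14.4 CPM with PFNA, with all 11 PFNA libraries above every control (log2 fold change 1.39 ± 0.14, edgeR quasi-likelihood test, adjusted p = 1.2e-09). The other 4 called higher were Slc30a6 (0.45), Slc30a9 (0.44), Slc30a4 (0.29) and Slc39a13 (0.23), of which the SLC30 members encode transporters of intracellular membranes or vesicles. The 3 called lower were Slc39a9 (-0.58), Slc39a6 (-0.24) and Slc39a7 (-0.21). Slc39a6 encodes ZIP6, which pairs with ZIP10. Of the genes not called, Slc30a5, Slc30a7 and Slc39a3 had log2 fold changes of -0.01, -0.14 and -0.17. Slc30a9 was thus called lower in the maturation window and higher in the ovulation window, the reverse order of the Slc30a1 calls.

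**Figure D5:**
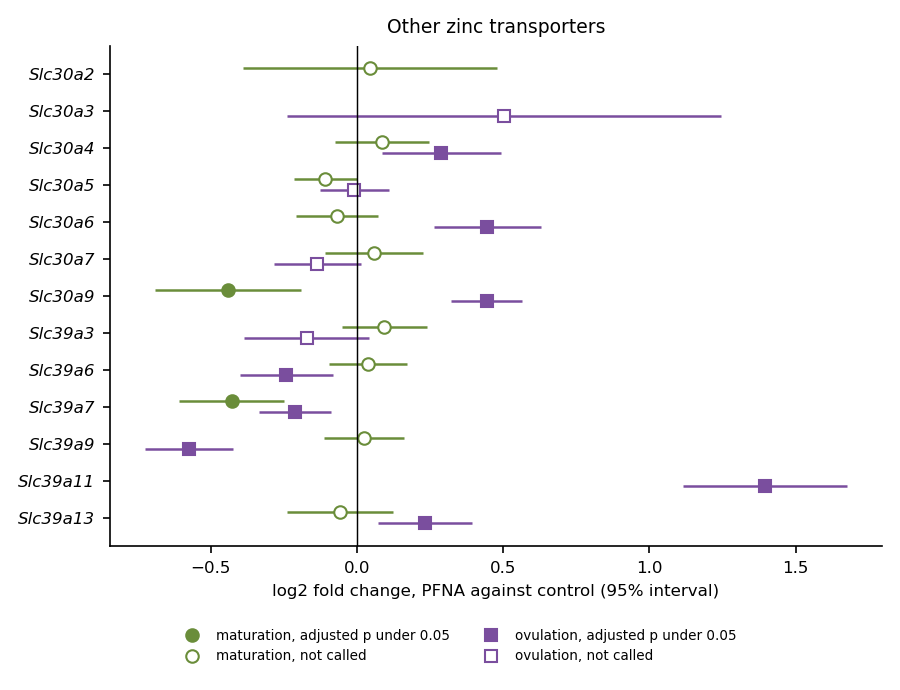
Log2 fold change of PFNA against control for the other zinc transporter genes tested in either window, with 95% intervals (circles, maturation window; squares, ovulation window; filled where the adjusted p was under 0.05). Slc39a11 lies at 1.39 in the ovulation window, and Slc30a9 has filled symbols on both sides of 0.

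Copper and iron handling genes, a list of 22 that metal-responsive factors and metallothioneins also touch, were split in direction. Of 20 tested in the maturation window 4 were higher and 3 lower (median log2 fold change 0.05), and of 22 tested in the ovulation window 8 were higher and 9 lower (median -0.16), shares near the 29.4% and 73.2% called over all genes. Slc40a1, the iron exporter ferroportin, was the gene of the list with a log2 fold change of at least 1 in the maturation window (6.99 ± 2.12 TPM, n = 11, to 17.1 ± 11.9 TPM, n = 10; 1.02, limma, adjusted p = 0.0028). Fth1, Sod1 and Hmox1 had 0.11, 0.03 and 0.06 there and did not pass. During ovulation the copper exporter gene Atp7a was at 74.1 ± 7.45 CPM (SD, n = 12) without and 283 ± 57.6 CPM (SD, n = 11) with PFNA, a log2 fold change of 1.93 (edgeR quasi-likelihood test, adjusted p = 6.7e-15). Mcoln1, a lysosomal cation channel, rose by 1.80 and Hmox1, the haem-degrading oxygenase, by 1.46, while Tfrc, the transferrin receptor, fell by 1.65. Ftl1, Aco1 and Atox1 had 0.11, -0.18 and -0.14 and did not pass.

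Glucocorticoid and IL-6 to STAT3 genes, a list of 12 chosen because those signals are known to induce Mt1, Mt2 and Slc39a14, were counted in the same way. Of 12 tested in the ovulation window 2 were higher and 10 lower (median log2 fold change -0.95). Of 10 tested in the maturation window 5 were higher and 1 lower (median 0.33). Over all genes 38% were higher and 35.2% lower in the former window, and 13.3% and 16.1% in the latter. Il6, the cytokine itself, was at 29.6 to 203 CPM in ovulation controls and at 2.37 to 13.3 CPM with PFNA, a log2 fold change of -4.22 ± 0.33 (edgeR quasi-likelihood test, adjusted p = 3.4e-11). Socs3, a STAT3 target that restrains IL-6 signalling, fell by 2.92, and the clock and glucocorticoid target Per1 fell by 2.28. Tsc22d3, which encodes the glucocorticoid-induced leucine zipper protein, rose by 1.16. Per1, Cebpd and Stat3 had 0.17, 0.37 and 0.09 in the maturation window and did not pass. The genes called there were Socs3 (0.86), Il6st (0.44), Nr3c1 (0.37), Tsc22d3 (0.33) and Klf9 (0.32), higher, and Fkbp5 (-0.46), lower. Fkbp5 was called higher in the ovulation window (0.22). Whether these signals had a part in the levels of Mt2 and Slc39a14 was not tested.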

How the data were processed

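RNA was isolated from ovarian follicles with the PicoPure kit, selected on poly-T beads and primed with random hexamers, per the labels' protocols. The submitters' processing notes name Partek, Bowtie2 and HISAT2. Their roles, the genome build and the annotation are not given in the sources used here. The values the authors deposited for the maturation window are TPM, scaled to 1000000 per library (80.2% were more than 0.01 from a whole number), although the table is named as counts. For the ovulation window the authors deposited estimated counts (9.82% not whole), which were rounded. Gene starts were those of GENCODE M21 (GRCm38) for 99.26% of symbols found there in the maturation table and for 37.16% in the ovulation table, so gene models differed. Coordinates are 1-based from the maturation table.

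Groups came from the labels. A column for maturation control replicate 6 differed from its title by a letter and was taken as that sample. No 2 libraries of a group were identical (highest correlation of log2 values 0.982), and ovulation pairs differed by more than sampling noise (chi-square per degree of freedom at least 7.22). In the maturation window limma 3.58.1 (R 4.3.3) was used on log2(TPM + 1), with trend and robust fitting, over the 13712 genes averaging 1 TPM or more. This scale understates the change of low genes. In the ovulation window edgeR 4.0.16 was used (filterByExpr, TMM, robust quasi-likelihood test) over 13441 genes, with CPM computed from the counts. The planned count test and joint fit could not be used for TPM. Standard errors of edgeR came from the fold change and its F statistic. P-values were adjusted by Benjamini-Hochberg over all genes tested, and tests were two-sided. Correlations used log2(value + 1) and 100000 permutations, or all permutations for fewer than 10 libraries. Both fits were tested on simulated data.

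The 9 genes and the other lists were chosen with earlier results of these data known. All 9 are named whatever their result. Of each other list, named genes were, per window, up to 4 called genes with the smallest p and a log2 fold change of 1 or more in size, and up to 3 not called with the highest mean. Calls below that fold, in the other zinc transporters and in the glucocorticoid and IL-6 list, were named after their values were seen. No gene of 4 red blood cell markers was analysed here. Of 5 leukocyte markers, 1 of 2 tested was higher in the maturation window and 1 of 5 in the ovulation window. None of 3 endothelial markers tested in the maturation window was called, and of 6 theca and stroma markers 1 was higher and 1 lower there. Alternatives (pseudocount, filter, scaling, DESeq2 1.42.0 on counts, an oocyte share covariate, a replicate block, libraries left out) were run for the 9 genes.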

Additional observations from a re-analysis of the deposited data

Results flagged for a closer look

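The PFNA effect differed between the maturation and ovulation windows for 6 of the 9 genes by a test of the difference itself. The ovulation effect minus the maturation effect was -2.48 for Mt2, -1.46 for Slc39a10, -0.78 for Slc30a1, -0.76 for Mtf1, -0.71 for Slc39a14 and -0.62 for Slc39a1 on the log2 scale (limma within each table, adjusted p of 7.3e-06 or less). Over all genes 67.7% differed (35.6% lower, 32% higher), so the count of 6 of 9 is near the share over all genes. In the maturation PFNA libraries the highest library for Mtf1, replicate 10 at 6.79 TPM, stood apart from the next at 5.05 TPM by 0.511 of the group's range, above Dixon's critical value for 10 libraries. Only this group had 10 or fewer libraries, all 9 genes were tested in it, and chance flags about 5% of such tests. Replicate 10 also had the highest oocyte marker sum of its group, 264 TPM. Without it the log2 fold change of Mtf1 in that window was 0.06 (limma, adjusted p = 0.67), against 0.12 with it.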

How the results depend on the processing

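The 6 calls of the ovulation window were made in every alternative run with all or nearly all libraries: DESeq2, median-ratio scaling, no filter, the oocyte covariate, control replicates 2 and 7 left out, and the replicate block. Leaving out single libraries gave 5 to 7 calls. The count of 6 genes differing between windows held in its 3 alternatives. In the maturation window the single call became 0 with the oocyte covariate, 4 without PFNA replicates 1 and 2 (3 higher, 1 lower), 2 with the replicate block, which added Mt2 (0.52, adjusted p = 0.023) and left Slc39a10 at 0.17 (adjusted p = 0.13), and 1 to 3 without single libraries. PFNA replicate 1 gave 3, and control replicates 3, 6, 8 and 10 and PFNA replicate 7 gave 2. It stayed at 1 with a pseudocount of 0.1, without a filter and with median-ratio scaling. The cause was not tested, and the block and the left-out libraries also change the number of samples. Over all genes, the maturation calls went from 4030 to 5201 without PFNA replicates 1 and 2 and to 2898 with the block.

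The replicate block took 6 calls in the ovulation window to 6, so it changed none there. Replicate numbers did not pair the libraries: same-numbered libraries correlated by -0.14 to 0.17 over 9 maturation pairs (1 over 0.1) and by -0.19 to 0.07 over 11 ovulation pairs. In the maturation window 1 control correlated best with its own number, and in the ovulation window 0 did.

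Estimates near 0 changed sign in the maturation window, none of them called. Mt3 was 0.0475 without PFNA replicates 1 and 2, 0.0109 with the replicate block and -0.3234 to 0.034 without single libraries, above 0 without control replicate 5 or 7 or PFNA replicate 1 or 5. Slc39a1 was -0.019 with median-ratio scaling, -0.0835 with the oocyte covariate, -0.0455 with the block and -0.0211 to 0.0257 without single libraries. Slc39a8 was 0.159 with the covariate, 0.0202 without PFNA replicates 1 and 2, 0.0102 with the block and -0.1955 to 0.0036 without single libraries, above 0 without control replicate 12. Correlations without 2 libraries no longer passed for Mt1 and Mt2 (0.81), Mt1 and Slc30a1 (0.70), Mt1 and Mt3 in maturation controls (0.74) and Mt2 and Mt3 in ovulation PFNA libraries (0.72 to 0.50), and that of Mt2 and Mt3 in maturation PFNA libraries went from 0.23 to -0.15. Leaving out 2 libraries also lowers the number of samples behind each p-value.

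Limits are the unknown depth of the maturation table, the low counts of Mt3 in the ovulation window, unstated strand use and a different gene model in each table. Over all genes, the ovulation calls numbered 9837, against 12190 without a filter and 11649 with DESeq2, and the maturation calls fell from 4030 to 874 with the covariate.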
